A study of Homo sapiens with 42 samples.

Results

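The 4 H2AK119ub libraries of NCI-H1299 were examined here, 2 from cells treated with doxycycline (DOX) and 2 from untreated control cells (CTRL), out of 42 samples in the series. They were chosen by their titles, which name the line, the treatment and the mark. NCI-H1299 is a human non-small cell lung cancer line that does not normally make DPPA2 or DPPA4. The derivative used carried cDNAs of FLAG-tagged DPPA2 and V5-tagged DPPA4 behind a promoter that responds to doxycycline, so both conditions carried both transgenes. DOX cells received 2 µg/mL doxycycline for 7 days and CTRL cells received water for the same time. No library of DOX-treated cells without the transgenes was used here, so an effect of the drug itself and an effect of the induced proteins cannot be told apart. The study's methods state that experiments were replicated in complete batches, but the labels do not say that the replicates were separate cultures or that a replicate number marks a batch, so p-values measure only the spread between these samples, which may be technical.

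H2AK119ub is histone H2A that carries a single ubiquitin near its carboxyl end. It is written by PRC1, a Polycomb complex whose catalytic subunits are RING1 and RNF2, and is best known from CpG-rich promoters of silent developmental genes, where it often lies beside the H3K27me3 mark of PRC2. Variant PRC1 complexes are led to unmethylated CpG-rich DNA by the zinc finger protein KDM2B. DPPA2 and DPPA4 are small chromatin proteins of the early embryo and of embryonic stem cells that bind CpG-rich promoters. The comparison asks where H2AK119ub lay in cells with the induced proteins and where it lay without them.

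The other marks of the same experiment were examined over the endogenous DPPA2 and DPPA4 genes, whose exon sequences the cDNA transgenes share. Over the DPPA2 gene (chromosome 3, 109293788 to 109316517, hg38), the H3K27ac lists held islands with 149 and 60 reads in DOX and 15 and 20 reads in CTRL. Over DPPA4 (chromosome 3, 109326144 to 109337546) they held 137 and 53 reads in DOX, and 0 and 19 reads in CTRL. Every one of these islands overlapped an annotated exon, and reads of the transgenes and of the endogenous genes cannot be told apart. H3K36me3 over DPPA2 had 9 and 37 reads in DOX and no island in CTRL, whereas H3K4me1 over DPPA2 had no island in DOX and 13 and 19 reads in CTRL. No H2AK119ub island, at any fold over input, lay over either gene in any of the 4 libraries. The mark under study thus gave no measure of the induction.

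The deposited data are islands, which are runs of 100 bp bins with more ChIP than input reads as the program EPIC2 calls them, each with its ChIP and input read counts. Islands with a log2 fold over input above 1 were kept, and 27745 and 26928 remained in DOX and 20170 and 32590 in CTRL. They covered 20.3 and 19.9 Mb in DOX and 13.6 and 24.1 Mb in CTRL. Both DOX libraries lay between the 2 CTRL libraries on either measure. The mean number of islands was 27337 ± 578 in DOX and 26380 ± 8782 in CTRL (SD, n = 2 each), a difference of 957 beside a difference of 12420 between CTRL replicates. The exact permutation test, two-sided, gave p = 1, and with 2 against 2 libraries it cannot give less than 0.333.

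Sequencing depth did not separate the conditions. The deposited folds and counts gave back a mean ChIP depth of 4.75 and 4.47 reads per kb of genome in DOX and 4.53 and 4.85 reads per kb in CTRL. Inside islands the density was 22.5 and 22.6 reads per kb in DOX, against 22.3 and 23.7 reads per kb in CTRL. That is 4.73 and 5.05 times the library's own genome mean in DOX, and 4.92 and 4.88 times in CTRL. The conditions overlapped on each of these measures. A median island held 14 and 14 reads in DOX and 13 and 14 reads in CTRL, which leaves a single island a wide counting error.

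The inputs did separate the conditions. A single input served both replicates of each condition, and its depth was 1.53 reads per kb in DOX and 1.05 reads per kb in CTRL. Islands without any input read made up 28.5% and 26.8% in DOX and 41.6% and 38.8% in CTRL, and the groups did not overlap (exact permutation p = 0.333, the smallest possible). The median log2 fold of kept islands was 2.07 and 2.10 in DOX, against 1.98 and 1.88 in CTRL. For any result that rests on the fold threshold, the input and the treatment cannot be told apart.

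**Figure D1:**
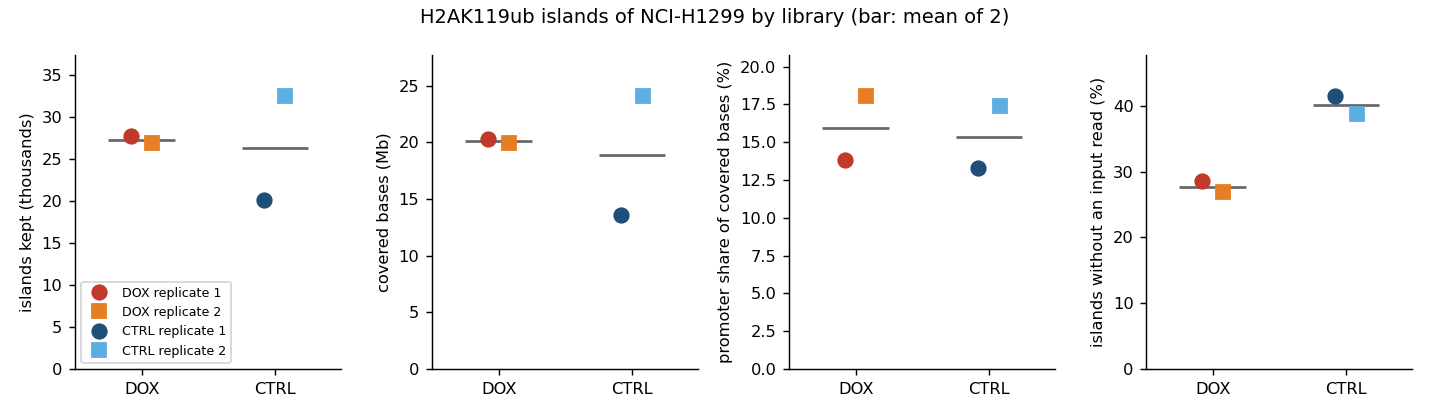
Each point is a library, with DOX left of CTRL, circles for replicate 1 and squares for replicate 2, and a bar at the mean of 2. From left to right the axes give islands kept (x 1000), covered bases in Mb, the percentage of covered bases in promoters, and the percentage of islands without an input read. The DOX libraries lie between the CTRL libraries in the first 2 panels, replicate 2 is the higher of each condition in the third panel, and only the last panel parts DOX from CTRL.

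The islands themselves recurred poorly between libraries. The 2 DOX lists shared 3.89 Mb, or 19.2% of the bases of replicate 1 and 19.5% of those of replicate 2. The CTRL lists shared 2.77 Mb, or 20.4% and 11.5% of their bases. A DOX and a CTRL library shared between 1.81 and 3.32 Mb. As a share of the bases in either list, the overlap was 10.7% within DOX, 7.94% within CTRL and 5.64% to 8.16% across conditions. On this measure, which depends on the lengths of both lists, the CTRL replicates were no more alike than the closest cross pair. Replicate 1 of CTRL, the shortest list, shared 20.4% of its bases with replicate 2 of CTRL, and 13.3% and 14.4% with the DOX libraries. Replicate 2 of CTRL shared 11.5% with replicate 1 of CTRL, and 12.4% and 13.8% with the DOX libraries. Joined, the 4 lists made 78272 regions, of which 61089 were seen in 1 library and 1546 in all 4.

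Promoters, taken as 1500 bp on either side of the start of a protein-coding gene, held 13.8% and 18.1% of the covered bases in DOX and 13.3% and 17.4% in CTRL. Replicate 2 exceeded replicate 1 by about 4 percentage points in each condition (4.27 in DOX and 4.13 in CTRL), while DOX exceeded CTRL by 0.60 points on average. Within either replicate number DOX was the higher. When every deposited island was counted, whatever its fold, promoters held 14.4% and 18.6% in DOX and 14.9% and 19.6% in CTRL, and the mean difference was -0.74 points, so the direction depended on the fold threshold. The other classes behaved alike. Exons outside promoters held 7.19% and 7.18% in DOX and 6.79% and 7.78% in CTRL, introns 39.02% and 37.8% in DOX and 38.1% and 39.1% in CTRL, and intergenic sequence 40.0% and 37.0% in DOX and 41.8% and 35.7% in CTRL. In each of these classes the conditions overlapped.

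CpG-rich windows gave the same picture as promoters. They overlapped 14.2% and 18.97% of islands in DOX and 12.9% and 16.8% in CTRL, again with replicate 2 the higher in both conditions. With all deposited islands the shares were 14.8% and 19.4% in DOX and 14.9% and 19.3% in CTRL, or -0.16 and 0.10 points more in DOX within replicate numbers. The G and C content of covered bases was 52.1% and 53.5% in DOX and 50.7% and 52.8% in CTRL. At a log2 fold above 2 it was 51.996% and 53.4% in DOX and 49.1% and 51.4% in CTRL, where the groups did not overlap, and at that threshold 52.8% and 47.2% of DOX islands but 85.7% and 82.5% of CTRL islands had no input read. The part of the input in this difference was not tested.

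Domains of H2AK119ub were short in every library. The median island was 700 and 700 bp wide in DOX and 600 and 700 bp in CTRL. Islands of 2 kb or more numbered 302 and 421 in DOX and 111 and 650 in CTRL. Islands of 5 kb or more numbered 6 and 6 in DOX and 0 and 26 in CTRL, and held 0.166% and 0.174% of the covered bases in DOX and 0 and 0.653% in CTRL. The widest island spanned 5900 and 7300 bp in DOX, against 4400 and 10600 bp in CTRL. On each of these measures the DOX libraries lay within the range of the CTRL libraries. With all deposited islands those of 5 kb or more held 0.198% and 0.229% of the bases in DOX and 0.287% and 1.39% in CTRL, where the conditions did not overlap (exact permutation p = 0.333, the smallest possible).

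Wide islands sat at promoters more often than narrow ones in all 4 libraries. Of islands above 500 and up to 1000 bp, 14.1% and 17.9% touched a promoter in DOX and 14.0% and 16.2% in CTRL. Of islands above 2000 and up to 5000 bp, 46.8% and 47.2% did in DOX, and 40.2% and 54.4% in CTRL. The rise with width was common to both conditions and larger than any difference between them.

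**Figure D2:**
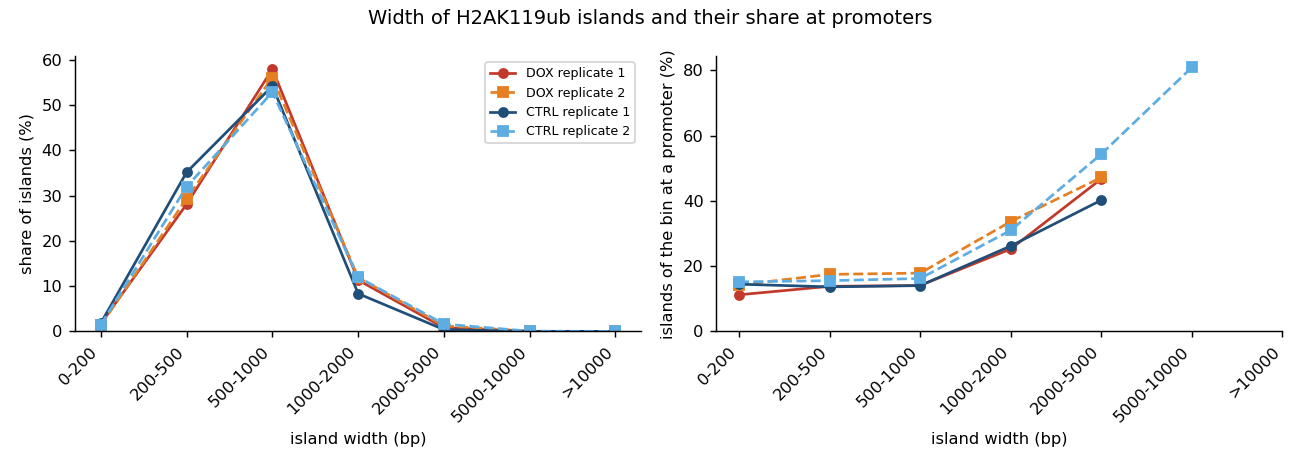
The left panel gives the percentage of islands in each width bin (in bp, lower limit excluded) for each library, and the right panel the percentage of a bin's islands that touch a promoter, for bins with at least 20 islands. DOX is in red and orange, CTRL in dark and light blue, and the lines of the 2 conditions cross and interleave in both panels.

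Marked promoters were counted in each library. Of 20033 promoters, 3736 and 4488 had an island in DOX and 2818 and 5257 in CTRL, and 8516 had an island in at least 1 library. Both DOX libraries lay between the CTRL libraries, and in DOX the replicate with fewer islands marked more promoters. An island in all 4 libraries was found at 772 promoters, or 3.85%, and 91.97% of these were CpG-rich, as were 72.7% of all promoters. CpG-rich promoters were covered at 22.3% and 27.5% in DOX and at 16.8% and 32.0% in CTRL, against 8.94% and 8.77% in DOX and 6.89% and 10.8% in CTRL for the others. The preference for CpG-rich promoters was present in every library.

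Promoters with an island in both DOX libraries and in no CTRL library numbered 609, which is 3.04% of all promoters, and those with the reverse pattern 419, or 2.09%. Each of these counts needs every library of both conditions to fit the pattern. The replicate counts that follow need only the libraries of a single condition, so the sizes cannot be compared directly. Within DOX 1409 promoters had an island in replicate 1 alone and 2161 in replicate 2 alone. Within CTRL 1055 had an island in replicate 1 alone and 3494 in replicate 2 alone. The excess of DOX-only promoters also depended on the fold threshold. With every deposited island counted there were 378 DOX-only and 397 CTRL-only promoters, and at a log2 fold above 2 there were 547 and 230.

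Many promoters in these 2 sets did carry deposited islands in the other condition, which fell below the threshold. That was so for 330 of the 609 DOX-only promoters (54.2%) and for 126 of the 419 CTRL-only promoters (30.1%). Once those were set aside, a step added after seeing the data, 279 DOX-only and 293 CTRL-only promoters remained. Of these, 88.2% in the DOX-only set and 84.0% in the CTRL-only set were CpG-rich.

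**Figure D3:**
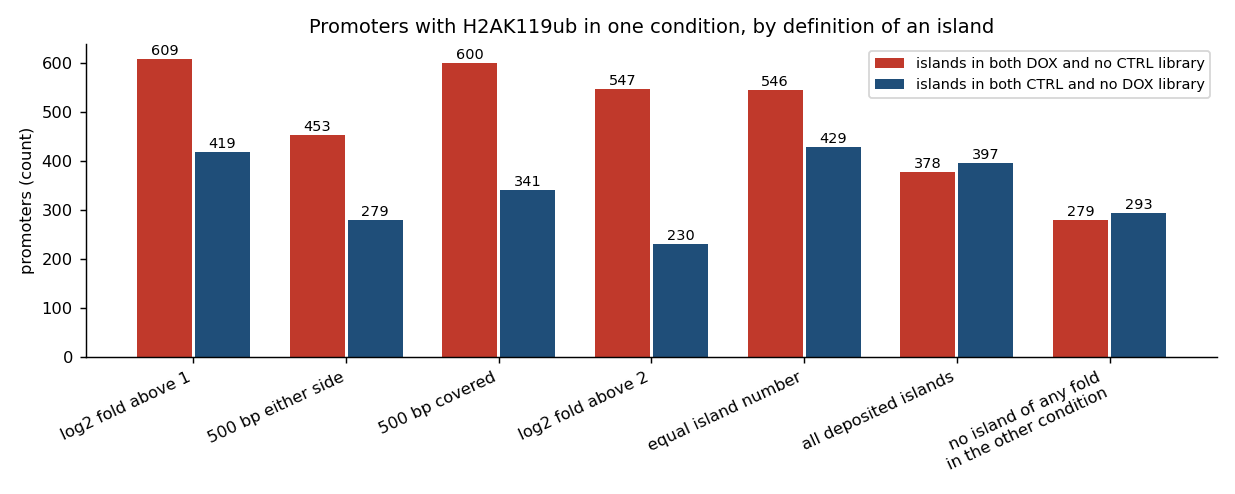
Bars give the number of promoters with islands in both libraries of a condition and in neither library of the other, DOX-only in red and CTRL-only in blue, under each way of defining an island or a promoter. DOX-only promoters outnumber CTRL-only ones in the first 5 pairs (609 and 419 in the first) but not in the last 2 (378 and 397, then 279 and 293), where islands of any fold count.

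Sequences from 5 promoters show the range of base composition behind these sets: the tested promoter with the smallest p (D2HGDH), the one with the widest domain (EFNA3), 1 promoter marked in DOX alone (NKX2-1) and 2 marked in CTRL alone (RSPO3 and PAX4). Each run is the 250 bases before the RefSeq start of the gene (GRCh38.p14), 5′ to 3′ on the gene's strand, with each CG dinucleotide in capitals.
D2HGDH: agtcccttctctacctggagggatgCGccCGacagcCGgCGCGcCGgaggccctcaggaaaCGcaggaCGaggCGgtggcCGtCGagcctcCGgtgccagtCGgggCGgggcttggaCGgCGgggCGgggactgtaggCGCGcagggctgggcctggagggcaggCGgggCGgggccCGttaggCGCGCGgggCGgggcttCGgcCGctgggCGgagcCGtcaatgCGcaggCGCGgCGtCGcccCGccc
EFNA3: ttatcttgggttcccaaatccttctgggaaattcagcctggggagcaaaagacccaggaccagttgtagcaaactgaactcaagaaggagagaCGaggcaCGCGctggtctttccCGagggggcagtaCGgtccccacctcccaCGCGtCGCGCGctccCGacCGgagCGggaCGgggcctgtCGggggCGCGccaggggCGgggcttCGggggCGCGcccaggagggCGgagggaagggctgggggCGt
NKX2-1: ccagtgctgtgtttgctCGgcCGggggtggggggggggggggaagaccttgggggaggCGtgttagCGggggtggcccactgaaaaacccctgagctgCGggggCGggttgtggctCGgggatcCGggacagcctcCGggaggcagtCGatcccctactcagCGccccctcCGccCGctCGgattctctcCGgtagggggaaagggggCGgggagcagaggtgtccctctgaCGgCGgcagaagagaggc
RSPO3: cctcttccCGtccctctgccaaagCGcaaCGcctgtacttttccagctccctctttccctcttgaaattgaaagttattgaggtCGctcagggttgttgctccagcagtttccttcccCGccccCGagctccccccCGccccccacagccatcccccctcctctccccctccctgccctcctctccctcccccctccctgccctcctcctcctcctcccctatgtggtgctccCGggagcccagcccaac
PAX4: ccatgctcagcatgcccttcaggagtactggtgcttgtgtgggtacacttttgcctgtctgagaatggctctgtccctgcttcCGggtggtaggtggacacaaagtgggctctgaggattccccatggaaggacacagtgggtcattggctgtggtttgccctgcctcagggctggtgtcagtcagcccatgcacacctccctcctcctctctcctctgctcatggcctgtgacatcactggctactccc
They lie at chr2:241734380-241734629 on the plus strand, chr1:155078587-155078836 on the plus strand, chr14:36520233-36520482 on the minus strand, chr6:127118421-127118670 on the plus strand and chr7:127618143-127618392 on the minus strand. CG (read on 1 strand, since it is its own reverse complement) occurred 36 times before D2HGDH, 23 times before EFNA3, 18 times before NKX2-1, 8 times before RSPO3 and 1 time before PAX4. Of 35116 such windows in the RefSeq table, 4.85% held at least as many as D2HGDH, 25.8% as many as EFNA3, 36.8% as many as NKX2-1, 56.3% as many as RSPO3 and 93.9% at least 1. All 5 were chosen from promoters with H2AK119ub islands, so their range says nothing of how CG content and the mark go together. The runs are placed by the gene start, not by the islands. The D2HGDH run lies only partly within its tested region, which ends at 241734500.

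DLL1, a Notch ligand, had the most reads of all DOX-only promoters. Its start on chromosome 6 (170291078, minus strand) was covered by kept islands with 398 and 338 reads in DOX and by none in CTRL. The deposited lists nevertheless held islands there with 433 and 540 reads in CTRL, and their width was 9900 and 8500 bp in DOX and 12200 and 12300 bp in CTRL. Their density was 40.2 and 39.8 reads per kb in DOX and 35.5 and 43.9 reads per kb in CTRL, so the groups overlapped. The highest log2 fold of an island there was 1.60 and 4.16 in DOX and 0.99 and 0.80 in CTRL. Input density at the locus was 4.85 and 4.71 reads per kb in DOX and 4.59 and 5.45 reads per kb in CTRL, which is several times the genome mean of either input. DLL1 thus had islands in both conditions, wider ones in CTRL.

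The same held for the next genes on the list. MUC12, a membrane mucin (chromosome 7), had 221 and 269 reads in kept islands of DOX and none in CTRL. Counting every deposited island, it had 221 and 269 reads in DOX and 263 and 349 reads in CTRL. PLEC (plectin, a cytoskeletal linker), MTA1 (a subunit of the NuRD complex), ARC (a neuronal immediate early gene) and MSH5 (meiotic recombination) also had deposited islands in both CTRL libraries. NXPH3, a neurexophilin, had 95 and 111 reads in DOX, against no island and 261 reads in CTRL. All 8 of the most heavily covered DOX-only promoters, with MSH5-SAPCD1 sharing its islands with MSH5, had a deposited island in at least 1 CTRL library.

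DOX-only promoters without any deposited CTRL island were more modestly covered. Those with the most reads, chosen after their values were seen, included GTF2IRD1, a transcription factor gene of the Williams syndrome region, with 71 and 69 reads in kept islands of DOX. ASL, the urea cycle enzyme argininosuccinate lyase, had 70 and 67 reads, and PDK2, a pyruvate dehydrogenase kinase, 53 and 53 reads. CPNE2, a copine, had 62 and 56 reads. None of the 4 had an island in CTRL, but the lists hold reads for islands only, so no fold change can be given.

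CTRL-only promoters were led by HASPIN, the kinase that phosphorylates threonine 3 of histone H3, with no island in DOX and 55 and 63 reads in CTRL over 2500 and 2300 bp. CHST14, a dermatan sulfotransferase, had no island in DOX and 37 and 71 reads in CTRL. RSPO3, a secreted amplifier of Wnt signalling, had none in DOX and 37 and 43 reads in CTRL, and KLHDC8B, a kelch domain protein, none in DOX and 30 and 36 reads in CTRL. These 4 had no deposited island of any fold in DOX. PER2, a core clock repressor, and BEND4 did have such islands: PER2 had 77 and 58 reads in DOX and 35 and 68 reads in CTRL, and BEND4 45 and 47 reads in DOX and 34 and 86 reads in CTRL. SPRY4, an inhibitor of receptor tyrosine kinase signalling, had 33 and 74 reads in CTRL and, in 1 DOX library, 2 islands below the threshold with 28 reads in all.

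Changes in amount could be tested only where all 4 libraries had islands. Regions that lay under islands over 50% or more of their length in each of the 4 libraries numbered 124, of which 64 touched a promoter, 28 an exon, 12 an intron and 20 no protein-coding gene. The other regions have missing counts rather than low ones. By edgeR's quasi-likelihood test, with the replicate number as a block and Benjamini-Hochberg adjustment, 0 of 124 regions (0%) passed an adjusted p of 0.05 with a log2 change of at least 0.5. At an unadjusted p below 0.05 there were 6, of which 3 were higher and 3 lower in DOX, and DESeq2 found 0 by either measure. The median log2 change over the 124 was -0.02. On counts simulated for these regions edgeR recovered 50% of 2-fold and 100% of 4-fold changes, at 12 altered regions each, with 1 false call. A smaller change could thus have been missed. The simulation kept every region in the test. A change that removed an island from a library could take its region out of the tested set, which the simulation did not cover.

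Lifting the coverage minimum gave 1546 regions with an island in every library, and again 0 passed (0%). There 81 regions had an unadjusted p below 0.05, 51 higher and 30 lower in DOX, and DESeq2 also called 0, with 76 at that unadjusted p. The simulated recovery was only 3% for 2-fold and 41% for 4-fold changes.

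D2HGDH, which encodes a mitochondrial enzyme that clears D-2-hydroxyglutarate, had the smallest p of the 124. The region at its promoter (chr2:241732901-241734500) held 19 and 33 reads in DOX and 55 and 61 reads in CTRL, and both DOX libraries lay below both CTRL libraries. The log2 change was -0.99 ± 0.29 (SE), with an adjusted p of 0.11 by edgeR. Reads per covered kb were 5.00 and 5.27 times the library mean in DOX and 8.09 and 8.39 times in CTRL. The log2 change stayed below 0 in all 14 fits that included the region, between -1.48 and -0.52. The adjusted p passed 0.05 in none of them and ran up to 1.00.

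The other regions with an unadjusted p below 0.05 were weaker. NCKAP5L, a microtubule-associated gene, had 21 and 19 reads at its promoter in DOX and 25 and 55 reads in CTRL (log2 change -0.76 ± 0.37). IQSEC3, a synaptic exchange factor for ARF proteins, had 37 and 36 reads over an exon in DOX and 55 and 74 reads in CTRL (log2 change -0.64 ± 0.25, adjusted p = 0.50 by edgeR). Among the 27 regions with a mean of at least 50 reads IQSEC3 was called, with a log2 change of -0.68 and an adjusted p of 0.0285 by edgeR, but per covered length its log2 change was 0.0093. The 3 higher regions lay outside genes. The first of these, chr7:155450001-155452300, had 33 and 63 reads in DOX, against 28 and 34 reads in CTRL (log2 change 0.79 ± 0.30). The second, on chromosome 6 from 16081301, had 17 and 29 reads in DOX and 14 and 15 reads in CTRL, and the third, on chromosome 16 from 86504701, had 58 and 65 reads in DOX and 48 and 50 reads in CTRL. At the first of the 3 the reads of the conditions overlapped, and at the other 2 both DOX libraries lay above both CTRL libraries in reads. Their density overlapped, however. On chromosome 6 it was 4.47 and 6.48 times the library mean in DOX and 6.18 and 5.15 times in CTRL. On chromosome 16 it was 6.10 and 5.19 times in DOX and 4.82 and 6.06 times in CTRL.

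**Figure D4:**
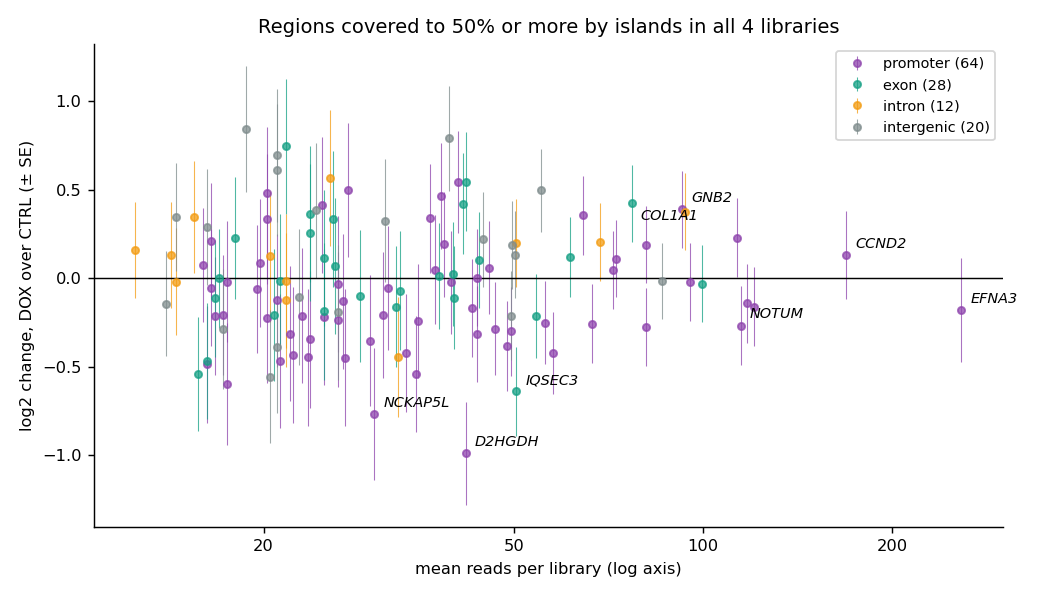
Each point is 1 of the 124 tested regions, placed by its mean reads per library (log axis) and by its log2 change in reads, DOX over CTRL, with the standard error as a bar and the kind of sequence by colour. The points scatter around 0 with a median of -0.02, from EFNA3 at the right end (-0.18) to D2HGDH at the bottom (-0.99).

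Regions admitted without the coverage minimum had larger fitted changes, none of which passed the test. TBC1D14, a regulator of autophagy, had 48 and 79 reads over an intron in DOX and 12 and 10 reads in CTRL, with a log2 change of 2.58 ± 0.75. CSF1R, a macrophage growth factor receptor, had 50 and 99 reads in DOX and 15 and 16 reads in CTRL (2.30 ± 0.72), and the region shared by FGF11 and TMEM102 had 120 and 131 reads in DOX and 16 and 62 reads in CTRL (2.06 ± 0.61). On the other side the region at EN2, a midbrain homeobox gene, had 87 and 19 reads in DOX and 143 and 209 reads in CTRL (-1.92 ± 0.61), and it lies next to the intergenic region of chromosome 7 named above. PTGDS, a prostaglandin D synthase, had 19 and 15 reads in DOX and 63 and 111 reads in CTRL (-2.19 ± 0.69). The smallest adjusted p among the 1546 was 0.214 by edgeR. Islands at TBC1D14 covered 2200 and 3100 bp in DOX and 600 and 300 bp in CTRL, and their density was 4.59 and 5.70 times the library mean in DOX and 4.42 and 6.87 times in CTRL, so the length called differed while the density overlapped.

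The densest and the widest of the tested promoter regions did not pass the test either. EFNA3 (ephrin-A3, a ligand of Eph receptors) lay in the widest tested region, chr1:155074501-155085000, with 214 and 236 reads in DOX and 235 and 346 reads in CTRL. Its islands covered 7100 and 7200 bp in DOX and 7900 and 8900 bp in CTRL, and its log2 change was -0.18 ± 0.29. CCND2, which encodes cyclin D2, had 163 and 168 reads in DOX and 136 and 210 reads in CTRL (log2 change 0.13 ± 0.25), with both DOX values inside the CTRL range. NOTUM, a secreted enzyme that inactivates Wnt proteins, had 102 and 92 reads in DOX and 107 and 159 reads in CTRL (log2 change -0.27 ± 0.22). MAFA, a pancreatic beta cell factor, had 128 and 102 reads in DOX and 85 and 139 reads in CTRL. NGFR, the low-affinity neurotrophin receptor, had 99 and 115 reads in DOX and 127 and 142 reads in CTRL, without overlap but with a log2 change of only -0.16 ± 0.23.

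Further wide regions, some of them outside promoters, had fitted changes of either sign. GNB2, a G protein beta subunit, had 93 and 106 reads in DOX and 74 and 98 reads in CTRL (log2 change 0.39 ± 0.22). COL1A1, a chain of type I collagen, had 80 and 86 reads over its exons in DOX and 54 and 88 reads in CTRL (0.42 ± 0.22). CDK5R2, a neuronal activator of CDK5, had 51 and 86 reads in DOX and 73 and 115 reads in CTRL (-0.27 ± 0.22). CYBA, the p22phox subunit of NADPH oxidase, had 120 and 88 reads in DOX and 98 and 164 reads in CTRL (-0.14 ± 0.22). Of the 44 tested regions of 2 kb or more, 23 had a log2 change above 0, with a median of 0.01. Of the 64 regions at promoters 21 did, with a median of -0.16, while 12 of the 20 outside genes did, with a median of 0.20. When libraries were scaled by the depth recovered from the folds, the median of all regions moved to -0.17, so these class medians are relative to the scaling.

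Classes of regions were also formed from other marks, and no region of any class was called. Among the 1546 regions with an island in every library, 331 lay on H3K27ac of both CTRL libraries and had a median log2 change of -0.18, and the 1215 without it had 0.03. The median was -0.11 for 689 regions on H3K4me1 of both CTRL libraries and 0.37 for the 20 on H3K9me3, 12 of which were above 0. The median was 0.02 for 754 regions that also carried H2AK119ub in NCI-H661, a lung cancer line that makes its own DPPA2 and DPPA4. It was -0.07 for 593 regions bound by DPPA2 and DPPA4 in that line, 0.03 for 279 with a SUZ12 peak, which marks PRC2, and -0.06 for 125 with a KDM2A peak. The median of all 1546 was -0.02.

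Islands at sites that DPPA2 and DPPA4 occupy in NCI-H661 had a slightly higher mean share in DOX, but only with the fold threshold. The share of islands there was 6.97% and 9.62% in DOX and 6.11% and 8.07% in CTRL, or 0.85 and 1.56 points more in DOX within replicate numbers. The values of the conditions overlapped, with replicate 2 the higher in each, and the means differed by 1.20 points. With all deposited islands the shares were 7.21% and 9.66% in DOX and 7.36% and 9.77% in CTRL, and the differences were -0.15 and -0.11 points. Among regions marked in both DOX and no CTRL library 17.98% (552 of 3070) overlapped such a site, and among the reverse 9.62% (204 of 2121). Without the regions that had a deposited island in the other condition the shares were 11.8% (247 of 2091) and 8.31% of 1769. Regions in all 4 libraries overlapped them at 38.4%. These lists were chosen by the mark itself, so the shares are a description. Islands on H2AK119ub of both NCI-H661 libraries made up 14.96% and 17.1% in DOX and 14.1% and 14.2% in CTRL, without overlap. With all deposited islands the shares were 14.8% and 16.8% in DOX and 15.4% and 15.6% in CTRL, where the conditions overlapped. The study also mapped DPPA2 and DPPA4 in DOX-treated NCI-H1299, and those sites were not used here.

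Islands on H3K27ac common to all 4 H3K27ac libraries of NCI-H1299 went the other way. Their share was 4.52% and 6.72% in DOX and 5.12% and 7.56% in CTRL, or -0.60 and -0.84 points within replicate numbers, and -0.73 and -1.39 points with all deposited islands. The values of the conditions overlapped, since replicate 2 exceeded replicate 1 by more than 2 points in each. On H3K36me3, the mark of transcribed gene bodies, the share was 2.86% and 2.36% in DOX and 2.99% and 3.54% in CTRL. These groups did not overlap (the exact test again cannot give less than 0.333), and the order was the same with all deposited islands, at 2.97% and 2.46% in DOX and 3.05% and 3.61% in CTRL. For replicate 1 the difference was only 0.13 points with kept islands.

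Gene families were compared by the promoters of their members, 1638 genes in 33 families. Of these, 28 (1.71%) were DOX-only, 30 (1.83%) were CTRL-only and 61 (3.72%) had islands in all 4 libraries, beside 3.04%, 2.09% and 3.85% of all promoters. In 30 of the 33 families the counts of the conditions overlapped or tied. No family had more marked promoters in both DOX libraries than in either CTRL library, and 3 had fewer: the PAX genes, the Frizzled receptors with LRP5 and LRP6, and the pluripotency and germline genes. Replicate 1 of CTRL was the lowest or tied in 25 families and replicate 2 of CTRL the highest or tied in 24, which mirrors the sizes of the lists.

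**Figure D5:**
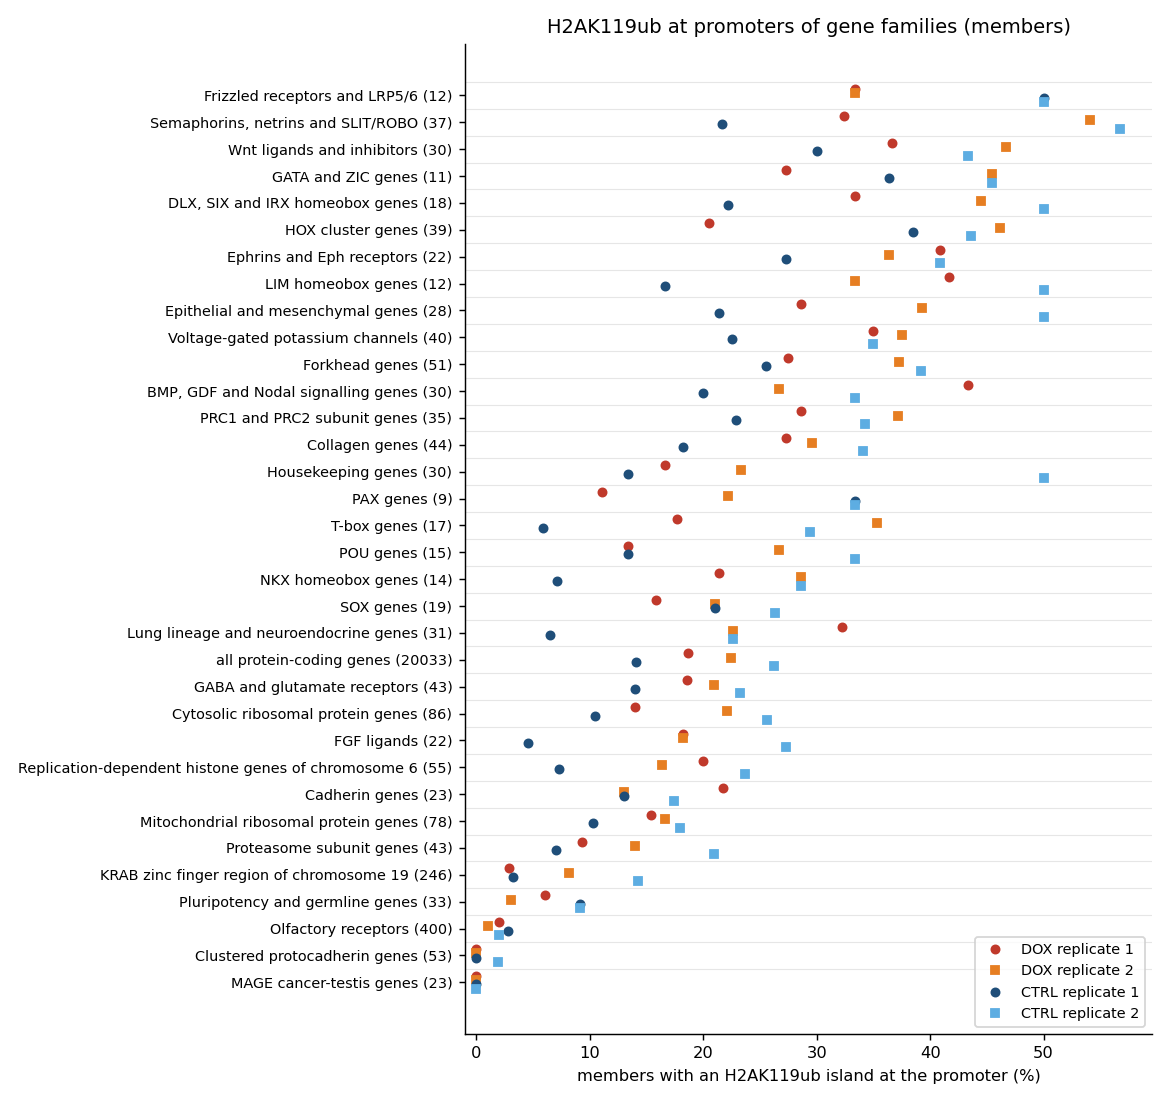
For each family, with its number of members in brackets, the 4 points give the percentage of members with an island at the promoter in each library, DOX above CTRL within a row, circles for replicate 1 and squares for replicate 2. Families are ordered by the mean of the 4 libraries, and the points of DOX mostly lie between those of CTRL replicate 1 and CTRL replicate 2.

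Wnt signalling and axon guidance genes were among the most widely marked. Of 30 Wnt ligands and secreted inhibitors, 26 of them with CpG-rich promoters, 11 and 14 had an island in DOX and 9 and 13 in CTRL. Of the 30, 5 had an island in all 4 libraries. These are 36.7% and 46.7% in DOX and 30.0% and 43.3% in CTRL. For all CpG-rich promoters the shares were 22.3% and 27.5% in DOX and 16.8% and 32.0% in CTRL. WNT6 had 53 and 30 reads in DOX and 97 and 172 reads in CTRL, whereas WNT10A, which lies near it on chromosome 2, had 87 and 36 reads in DOX and 10 and 30 reads in CTRL. Counting every deposited island WNT10A had 87 and 36 reads in DOX and 55 and 133 reads in CTRL. WNT9A and WNT16 were DOX-only, with 16 and 24 reads and with 19 and 13 reads, though WNT9A had an island below the threshold in 1 CTRL library. Their receptors, the Frizzled proteins and LRP5 and LRP6, were 1 of the families without overlap, at 4 and 4 of 12 in DOX and 6 and 6 in CTRL. LRP6, a Wnt coreceptor, was CTRL-only (21 and 37 reads), and FZD1, FZD2 and FZD9 in all 4 libraries.

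Among 37 semaphorins, netrins and SLIT and ROBO genes, 31 of them with CpG-rich promoters, 12 and 20 were marked in DOX and 8 and 21 in CTRL. That is 32.4% and 54.1% in DOX and 21.6% and 56.8% in CTRL, beside the same shares of all CpG-rich promoters. SLIT2, a repellent of growing axons, had 38 and 44 reads in DOX and no kept island in CTRL, and NTN1 (netrin-1) none in DOX and 14 and 15 reads in CTRL. Of 22 ephrins and Eph receptors, all with CpG-rich promoters, 9 and 8 were marked in DOX and 6 and 9 in CTRL, or 40.9% and 36.4% in DOX and 27.3% and 40.9% in CTRL. The receptor EPHB4 was DOX-only, with 43 and 79 reads, although its deposited islands held 52 and 103 reads in CTRL, and the receptor EPHA2 CTRL-only, with 12 and 69 reads. Members of the same pathway thus appeared on either side.

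Homeobox genes of the HOX clusters, classical Polycomb targets, differed more between the DOX replicates than between the CTRL replicates. Of 39 HOX genes, 38 of them with CpG-rich promoters, 8 and 18 were marked in DOX and 15 and 17 in CTRL. That is 20.5% and 46.2% in DOX and 38.5% and 43.6% in CTRL. For all CpG-rich promoters the shares were 22.3% and 27.5% in DOX and 16.8% and 32.0% in CTRL. Of the HOX genes 0 were DOX-only and 2 (5.13%) CTRL-only, beside 3.04% and 2.09% of all promoters. The CTRL-only genes were HOXD8 (15 and 13 reads in CTRL) and HOXA7 (11 and 20 reads in CTRL). HOXB4 had 28 and 95 reads in DOX and 82 and 210 reads in CTRL, but counting every deposited island 126 and 95 reads in DOX and 102 and 245 reads in CTRL, where the conditions overlapped. HOXB3 had 42 and 50 reads in DOX and 46 and 55 reads in CTRL. HOXB2 had a kept island in replicate 2 of each condition alone, with 84 reads in DOX and 122 reads in CTRL, and HOXB7 likewise, with 71 reads in DOX and 112 reads in CTRL.

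The family of DLX1 and IRX3 had 1 DOX-only and 1 CTRL-only gene of 18 (5.56% each). The NKX family had 2 and 0 of 14 (14.3% DOX-only), and the LIM family 1 and 0 of 12 (8.33% DOX-only). The PAX family had 0 and 1 of 9 (11.1% CTRL-only). Among all promoters 3.04% were DOX-only and 2.09% CTRL-only. IRX3, a neural and limb patterning factor, was DOX-only with 34 and 37 reads (28 reads below the threshold in 1 CTRL library), and DLX1, a forebrain interneuron factor, CTRL-only with 13 and 36 reads (18 reads below the threshold in 1 DOX library). LMX1B, a LIM factor of limb and midbrain, was DOX-only with 48 and 81 reads, beside 74 and 115 reads below the threshold in CTRL. NKX3-2, a skeletal and gut factor, was DOX-only with 68 and 36 reads. NKX2-1, the lineage factor of lung and thyroid, was DOX-only with 15 and 15 reads and had no deposited island of any fold in CTRL. PAX4, a pancreatic islet factor, was CTRL-only with 21 and 22 reads. The PAX genes as a family, 8 of them with CpG-rich promoters, were marked at 1 and 2 of 9 in DOX and at 3 and 3 in CTRL. That is 11.1% and 22.2% in DOX and 33.3% and 33.3% in CTRL. For all CpG-rich promoters the shares were 22.3% and 27.5% in DOX and 16.8% and 32.0% in CTRL.

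Lung lineage and neuroendocrine genes were marked at 10 and 7 of 31 in DOX and at 2 and 7 in CTRL. That is 32.3% and 22.6% in DOX and 6.45% and 22.6% in CTRL. All promoters were marked at 18.6% and 22.4% in DOX and at 14.1% and 26.2% in CTRL. Of the 31 genes 3 (9.68%) were DOX-only, namely NKX2-1, DLL1 and the neurogenic factor NEUROG2 (20 and 27 reads), and 0 CTRL-only. Over all promoters 3.04% were DOX-only and 2.09% CTRL-only. DLL1 also had deposited islands below the threshold in both CTRL libraries, as described above. VGF, a neuroendocrine secretory protein, carried 168 and 212 reads in DOX and 40 and 299 reads in CTRL, so its CTRL replicates bracketed both DOX libraries. Among epithelial and mesenchymal genes, CLDN4 (claudin-4, a tight junction protein) was DOX-only with 57 and 32 reads, while SNAI1, a repressor of E-cadherin, had 68 and 55 reads in DOX and 11 and 52 reads in CTRL.

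BMP and GDF genes, a family of secreted growth factors, were marked at 13 and 8 of 30 in DOX and at 6 and 10 in CTRL. That is 43.3% and 26.7% in DOX and 20.0% and 33.3% in CTRL. For all promoters the shares were 18.6% and 22.4% in DOX and 14.1% and 26.2% in CTRL, with 3.04% DOX-only and 2.09% CTRL-only. BMP6 was DOX-only with 48 and 89 reads, beside 21 and 62 reads below the threshold in CTRL, and GDF7 was DOX-only with 29 and 67 reads and no CTRL island of any fold. The BMP antagonist CHRD (13 and 45 reads in CTRL), GDF1 (15 and 42 reads) and GDF5 (13 and 12 reads) were CTRL-only, though CHRD had 15 reads below the threshold in 1 DOX library. Of 51 forkhead genes 14 and 19 were marked in DOX and 13 and 20 in CTRL. These are 27.5% and 37.3% in DOX and 25.5% and 39.2% in CTRL. FOXK2 was DOX-only (14 and 13 reads), and FOXN2, FOXJ2 and FOXA3 were CTRL-only (14 to 20 reads in a CTRL library). FOXJ2 also had deposited islands in both DOX libraries, and with every island counted it had 43 and 32 reads in DOX and 48 and 62 reads in CTRL. The T-box gene TBX21, a T helper cell factor, was DOX-only with 40 and 108 reads, beside 71 and 169 reads below the threshold in CTRL.

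Of 35 PRC1 and PRC2 subunit genes, all with CpG-rich promoters, 10 and 13 had an island in DOX and 8 and 12 in CTRL, 5 in all 4 libraries. These are 28.6% and 37.1% in DOX and 22.9% and 34.3% in CTRL, beside 22.3% and 27.5% in DOX and 16.8% and 32.0% in CTRL for all CpG-rich promoters. PCGF2 and CBX2, subunits of canonical PRC1, were DOX-only, with 36 and 31 reads and with 16 and 55 reads. Both had an island below the threshold in 1 CTRL library. RING1, a catalytic subunit, and KDM2B, the CpG reader of variant PRC1, were CTRL-only, with 11 and 81 reads and with 15 and 21 reads. JARID2, a PRC2 cofactor, had 14 and 37 reads in DOX and 40 and 101 reads in CTRL, and PCGF3 44 and 69 reads in DOX and 24 and 56 reads in CTRL. These are marks at the genes and say nothing of their expression.

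Of 86 cytosolic ribosomal protein genes, which serve every cell, 12 and 19 had an island in DOX and 9 and 22 in CTRL. That is 13.95% and 22.1% in DOX and 10.5% and 25.6% in CTRL, beside 18.6% and 22.4% in DOX and 14.1% and 26.2% in CTRL for all promoters. RPL13 had the most reads of the DOX-only members, 189 and 48, but its deposited islands held 109 and 132 reads in CTRL. Of 30 housekeeping genes 5 and 7 were marked in DOX and 4 and 15 in CTRL, so replicate 2 of CTRL, at 50.0%, stood apart from the other libraries at 13.3% to 23.3%. SDHA, a subunit of succinate dehydrogenase, was DOX-only (24 and 21 reads) and TBP, the TATA-binding protein, CTRL-only (21 and 14 reads).

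Several large gene clusters had few marked promoters. Of 400 olfactory receptor genes, of which only 4 have a CpG-rich promoter, 8 and 4 were marked in DOX and 11 and 8 in CTRL. That is 2.00% and 1.00% in DOX and 2.75% and 2.00% in CTRL. Promoters that are not CpG-rich were marked at 8.94% and 8.77% in DOX and at 6.89% and 10.8% in CTRL. The olfactory genes held 1 DOX-only (0.25%) and 5 CTRL-only promoters (1.25%), beside 3.04% and 2.09% of all promoters. OR4D2 and OR4D1, neighbours on chromosome 17, were among the CTRL-only ones with 31 and 49 reads and with 15 and 22 reads. OR4D1 also had 33 and 33 reads below the threshold in DOX, and OR4D2 12 reads in 1 DOX library. Of 246 zinc finger genes of chromosome 19, 7 and 20 were marked in DOX and 8 and 35 in CTRL, or 2.85% and 8.13% in DOX and 3.25% and 14.2% in CTRL, and 192 had no island in any library. Of 53 clustered protocadherin genes 0 and 0 were marked in DOX and 0 and 1 in CTRL, and of 23 MAGE genes 0 in any library. All promoters were marked at 18.6% and 22.4% in DOX and at 14.1% and 26.2% in CTRL. Pluripotency and germline genes were marked at 2 and 1 of 33 in DOX and at 3 and 3 in CTRL. These are 6.06% and 3.03% in DOX and 9.09% and 9.09% in CTRL. POU5F1, which encodes OCT4, was the only member with an island in all 4 libraries, with 43 and 21 reads in DOX and 10 and 24 reads in CTRL. With every deposited island counted it had 43 and 21 reads in DOX and 45 and 41 reads in CTRL.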

How the data were processed

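ChIP-seq islands of the 4 H2AK119ub libraries were analysed. Per the labels and the study's methods, the authors trimmed reads (Trim Galore 0.6.6), aligned them to hg38 (BWA 0.7.13), marked duplicates (Picard 2.6.0) and called islands with EPIC2 in 100 bp bins against 1 input per condition. The deposited EPIC2 lists give whole ChIP and input read counts per island. They also give a p-value with its FDR, and the log2 fold of ChIP over input, as the authors' caller wrote them. The deposited NCI-H661 peak lists of DPPA2, DPPA4, SUZ12 and KDM2A give fold enrichment over background and −log10 p-values from MACS2. Their peaks were first selected by fold and by significance, and the positions of the selected peaks were then used for overlaps. The NCI-H661 H2AK119ub lists hold EPIC2 islands, which were filtered in the same way as those of NCI-H1299. Mouse spike-in reads are not part of these lists, so no spike-in scaling was applied and a uniform change in the mark would not be seen.

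Islands were kept where the log2 fold exceeded 1 (FDR below 0.05). Overlapping islands of the 4 libraries were joined into regions, and reads were summed per region. Promoters extended 1500 bp each way from the starts of 20033 protein-coding genes (GENCODE 44). Windows of 500 bp with 55% G and C or more, and CpG at 0.65 or more of its expected frequency, were called CpG-rich. Regions were tested with edgeR 4.0.16 (quasi-likelihood test, TMM on the region counts, replicate number as block) in R 4.3.3, with DESeq2 1.42.0 as an alternative, and the code was tested on simulated data. The block follows the batch term of the study's model, which otherwise used a likelihood ratio test and TMM factors from genome bins. Single values were compared by exact permutation (scipy 1.17.1). A median of 13 to 14 reads per kept island sets the counting precision. Named genes were those with the smallest p, the densest and the widest regions, up to 8 of each, the 8 DOX-only and 8 CTRL-only promoters with most reads in the lower library, and up to 4 members per family with most reads plus up to 4 found in 1 condition. The members, gene lists and tests were chosen with earlier results of these data known.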

Additional observations from a re-analysis of the deposited data

How the results depend on the processing

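No region was called in the test of 124 regions, in the fit with no replicate block (0 called, smallest adjusted p 0.817, against 0.11 with the block, by edgeR) or in any fit leaving out a library (0 called in each). The block was used because the study's methods name batches. The labels do not tie the numbers to them, and same-numbered libraries deviated together only weakly (correlation 0.105 over 2 pairs), so values within replicate numbers are a description. A single region was called in each of 3 alternatives: 1 of 27 at a mean count of at least 50 (IQSEC3, lower in DOX, adjusted p = 0.0285 by edgeR), 1 of 124 when reads were taken per covered length (in an intron of EXD3, higher in DOX), and 1 of 1546 when both that was done and the coverage minimum was lifted (in an intron of OPRL1, lower in DOX). The last, and the bar on islands of any fold below, were chosen after seeing the data. Per covered length the log2 change of IQSEC3 was 0.0093, the only named region below p 0.05 to change sign. Promoters in DOX only fell to 378 with all deposited islands and 279 when islands of any fold in CTRL were barred, and ran between 895 and 1537 when a library was left out. Promoters in CTRL only fell to 279 with promoters of 500 bp either side and to 230 at a log2 fold above 2. They ran between 638 and 2173 when a library was left out. Leaving out a library removes a requirement from the rule for either set, so those counts could only stay or rise. Barring islands of any fold adds a requirement, so that count could only stay or fall. The difference in promoter share, 0.60 points, became -0.74 with all deposited islands and ran between -1.53 and 2.74 without a library. The difference in covered bases, 1.23 Mb, became -0.47 Mb with all deposited islands and ran between -4.04 and 6.50 Mb. The difference in the share of bases in islands of 5 kb or more, -0.16 points, became -0.63 and ran between -0.48 and 0.17. The difference in median width ran between 0 and 100 bp. Families with a member marked in all 4 libraries numbered 23, and 6 at a log2 fold above 2. The cause of the other shifts was not tested.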

Other observations

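H2AK119ub islands were spread unevenly over chromosomes in both conditions. Chromosome 6 held 11.98% and 10.6% of the covered bases in DOX and 12.97% and 10.5% in CTRL, and chromosome 17 held 9.67% and 10.4% in DOX and 8.81% and 9.31% in CTRL. Chromosome 10, with 730 protein-coding genes, held 0.338% and 0.443% in DOX and 0.424% and 0.759% in CTRL. Input density inside islands was 2.36 and 2.54 reads per kb on chromosome 6 and 1.39 and 1.48 reads per kb on chromosome 10 in DOX. Replicate 2 had the larger share of bases in promoters in both conditions.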
